A study of Mus musculus with 32 samples.

Results

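The *Cyp4a* genes encode cytochrome P450 enzymes that hydroxylate fatty acids, and 6 of them were followed in mouse kidney cortex: *Cyp4a10*, *Cyp4a14*, *Cyp4a12a*, *Cyp4a12b*, *Cyp4a31* and *Cyp4a32*. They were taken by gene symbol from a table of RNA-Seq counts of 32544 genes. Among them 11 symbols begin with Cyp4a, and all 6 genes passed the low-count filter in every comparison. The other 5 symbols were almost silent, with 20 counts over all 32 mice for *Cyp4a30b*, 1 count for *Cyp4a28-ps* and 0 counts for *Cyp4a29*, *Cyp4a29-ps1* and *Cyp4a30-ps*.

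CYP4A enzymes sit in the endoplasmic reticulum and add a hydroxyl group to the last carbon of a fatty acid, the ω carbon. The product is oxidized to a dicarboxylic acid that peroxisomes can shorten, a side route to mitochondrial β-oxidation. In some members the same reaction turns arachidonic acid into 20-HETE, a lipid that acts on renal vessels and tubular sodium transport. In rodents the family is expressed in liver and in the proximal tubule of the kidney, *Cyp4a10* and *Cyp4a14* are classical targets of the nuclear receptor PPARα, and *Cyp4a12a* is known as the main 20-HETE synthase of males.

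The study asked whether nicotinamide riboside (NR), a precursor of NAD+, changes kidney metabolism in a mouse model of Alport syndrome, a hereditary disease of the type IV collagen of the glomerular basement membrane. All mice carried the Col4a3tm1Dec allele on C57BL/6J and were 25 weeks old. Controls were Col4a3+/- and Alport mice were Col4a3-/-, so the controls were heterozygous and not wild type. Mice of both genotypes ate a purified control diet without addition (vehicle) or with 0.5% NR by weight from 10 weeks of age, which gave 8 groups of 4 mice: control vehicle, control NR, Alport vehicle and Alport NR, each in males and in females.

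Each mouse gave 1 poly(A) library of 16621944 to 27778797 counts (median 22071395). *Ddx3y*, on the Y chromosome, was 48.0 to 85.8 CPM (counts-per-million, TMM-scaled) in males and at most 1.42 CPM in females. *Col4a3* ran from 48.8 to 83.2 CPM in Alport mice. In controls it ran from 59.4 to 201 CPM, and the overlap came from 2 NR-treated control males (replicate 1 with 59.4 CPM and replicate 3 with 75.2 CPM). The log2 ratio of *Col4a3* to *Col4a4* separated the genotypes in all 32 mice (Alport, −1.77 to −1.28; control, −0.90 to −0.28). Markers of the proximal tubule were abundant in all mice, with 6131 to 32018 summed CPM for 16 genes. Results on single *Cyp4a* genes that rest on the 2 overlapping males are also given without them.

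The 6 genes lie side by side on chromosome 4 of the mouse genome (GRCm38, which is mm10), and their likeness limits how well reads can be told apart. *Cyp4a12a* spans chr4:115299046-115332815, *Cyp4a12b* chr4:115411624-115439034, *Cyp4a10* chr4:115518264-115533649, *Cyp4a31* chr4:115563649-115579015 and *Cyp4a32* chr4:115600969-115621602 on the plus strand, with *Cyp4a14* at chr4:115486200-115496142 on the minus strand. The coding exons that encode the cysteine loop, which holds the heme iron of every P450, show the 3 groups of the family. The stretch of 60 coding bases crosses from exon 11 into exon 12 in each gene (chr4:115529487-115532558 with the intron in *Cyp4a10*, chr4:115487284-115489820 in *Cyp4a14* and chr4:115328971-115331861 in *Cyp4a12a*), and capitals mark bases that differ from *Cyp4a10*.
Cyp4a10: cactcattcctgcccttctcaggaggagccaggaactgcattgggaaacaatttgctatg
Cyp4a31: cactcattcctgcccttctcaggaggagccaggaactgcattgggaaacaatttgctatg
Cyp4a32: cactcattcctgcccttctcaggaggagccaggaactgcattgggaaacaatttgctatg
Cyp4a12a: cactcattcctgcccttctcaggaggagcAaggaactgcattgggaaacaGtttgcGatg
Cyp4a12b: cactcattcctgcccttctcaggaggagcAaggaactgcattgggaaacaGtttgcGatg
Cyp4a14: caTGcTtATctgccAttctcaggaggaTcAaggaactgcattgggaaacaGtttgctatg

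*Cyp4a10*, *Cyp4a31* and *Cyp4a32* were identical here, *Cyp4a12a* and *Cyp4a12b* shared 3 differences from them, and *Cyp4a14* had 9. Over the whole coding sequence, 98.49% of bases were identical between *Cyp4a12a* and *Cyp4a12b* (23 differences in 1524 bases), 97.18% between *Cyp4a10* and *Cyp4a32* and 96.59% between *Cyp4a10* and *Cyp4a31*. *Cyp4a14* was 75.24% to 75.92% identical to the other 5 genes.

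The stretches where the closest pairs do differ are what lets a read name its gene. In coding bases 624 to 683, in exons 5 and 6 (chr4:115326309-115326681 in *Cyp4a12a* and chr4:115432561-115432934 in *Cyp4a12b*), 4 bases separate the *Cyp4a12* pair, with capitals for those that differ from *Cyp4a12a*.
Cyp4a12a: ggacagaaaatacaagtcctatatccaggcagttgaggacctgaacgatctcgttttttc
Cyp4a12b: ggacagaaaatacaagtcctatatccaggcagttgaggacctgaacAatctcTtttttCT

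In exon 2 (coding bases 235 to 294, chr4:115519675-115519734 in *Cyp4a10*), *Cyp4a31* differs from *Cyp4a10* at 2 bases, *Cyp4a32* at 6 and *Cyp4a14*, over the matching bases 229 to 288, at 27, again in capitals.
Cyp4a10: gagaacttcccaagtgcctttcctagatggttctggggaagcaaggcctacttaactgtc
Cyp4a31: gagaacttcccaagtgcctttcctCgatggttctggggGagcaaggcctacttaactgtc
Cyp4a32: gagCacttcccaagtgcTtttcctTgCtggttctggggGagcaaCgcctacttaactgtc
Cyp4a14: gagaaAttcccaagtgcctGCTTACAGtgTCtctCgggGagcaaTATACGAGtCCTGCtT

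All windows of 50 bases in the transcript of *Cyp4a14* were absent from the other 5 transcripts, against 79.92% for *Cyp4a31*, 69.51% for *Cyp4a10*, 53.21% for *Cyp4a32*, 51.12% for *Cyp4a12a* and 50.55% for *Cyp4a12b*. With windows of 150 bases the shares were 95.81%, 95.66%, 92.03%, 74.40% and 74.09%. How reads that match several members were assigned is not given in the sources used here, so the split of counts within the *Cyp4a12* pair and within the *Cyp4a10*, *Cyp4a31* and *Cyp4a32* group is uncertain, and *Cyp4a14* is the member whose count can be read most directly.

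The mix of the 6 genes differed between the sexes and diets. Per kilobase of transcript, in vehicle-treated control males *Cyp4a10* held 41.6% of the family (SD 7.99, n = 4), *Cyp4a31* 39.5%, *Cyp4a12a* 11.6%, with 18.8% in replicate 2, and *Cyp4a14* 5.16%. In vehicle-treated control females *Cyp4a14* held 39.1% and *Cyp4a12a* 0.151%. With NR *Cyp4a14* was the largest share in each of the 4 treated groups, with group means of 49.6% to 58.2%. *Cyp4a32* was never above 0.852% in a mouse, with 8 to 64 counts per library.

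Together the 6 genes took from 0.0346% of all counts, in a vehicle-treated Alport male (replicate 2), to 0.734%, in an NR-treated Alport female (replicate 4). In vehicle-treated mice the mean share was 0.0591% in control males, 0.0473% in Alport males, 0.159% in control females and 0.0965% in Alport females. With NR it was 0.416%, 0.332%, 0.390% and 0.454% in the same order, and in each pair of groups the lowest NR-treated mouse was above the highest vehicle-treated mouse.

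**Figure D1:**
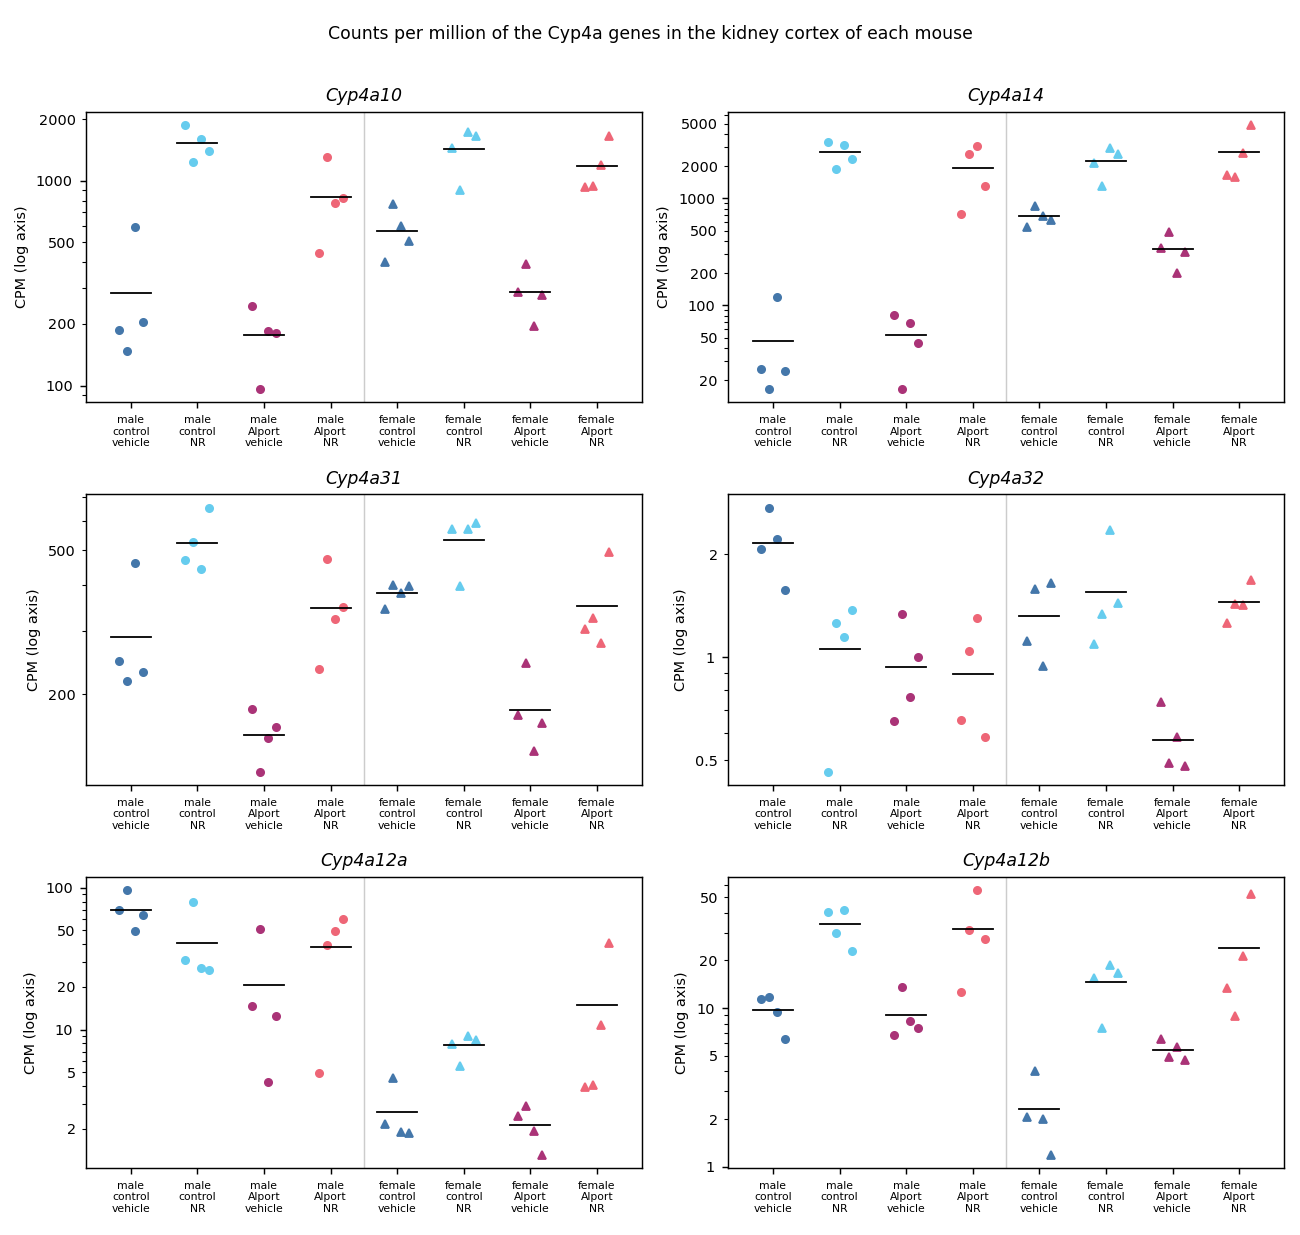
Level of each *Cyp4a* gene in CPM (log axis), with 1 symbol per mouse (circles, males; triangles, females) and a bar at the mean of the 4 mice. *Cyp4a14* is at 16.5 to 119 CPM in all 8 vehicle-treated males and at 712 to 3398 CPM in all 8 NR-treated males, and *Cyp4a12a* is at 49.7 to 95.7 CPM in vehicle-treated control males against 1.88 to 4.54 CPM in females.

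The comparison of the sexes in vehicle-treated controls asks how dimorphic the family is before disease or treatment. Of the 6 genes 3 differed at an adjusted p under 0.05, where 31.7% of the genes tested did (15.8% higher and 15.9% lower in males), and the same 3 had values that did not overlap between the sexes, where 32.2% of all genes did. *Cyp4a14* was 25.1, 16.6, 119 and 24.4 CPM in control males and 542, 858, 688 and 633 CPM in control females. Every female was above every male by a wide gap, and male replicate 3 was high among the males. The log2 fold change (log2FC) of males against females was −3.91 ± 0.54 (SE, adjusted p = 0.000284), 15-fold lower in males, and −4.97 without male replicate 3.

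*Cyp4a12a* ran the other way. It was 69.6, 95.7, 49.7 and 63.8 CPM in control males and 2.14, 4.54, 1.88 and 1.88 CPM in control females, with a log2FC of 4.69 ± 0.28 (adjusted p = 4.5e-07), 25.9-fold higher in males. *Cyp4a12b*, its near copy, was also higher in males by a log2FC of 2.03 ± 0.31 (adjusted p = 0.000522), at 6.38 to 11.8 CPM against 1.19 to 4.02 CPM.

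*Cyp4a10* (log2FC −1.04, adjusted p = 0.0527), *Cyp4a31* (−0.43, 0.121) and *Cyp4a32* (0.68, 0.0749) did not pass. The outcome for the first of these turned on single mice and on the fit. *Cyp4a10* was 188, 148 and 205 CPM in control males 1, 2 and 4 and 591 CPM in replicate 3, the mouse that was also highest for *Cyp4a14* and *Cyp4a31*. Without it *Cyp4a10* was lower in males by −1.68 (adjusted p = 0.000144) and *Cyp4a31* by −0.74 (8.32e-05), and without female replicate 1 *Cyp4a10* was also called (−1.17, 0.0448). With no low-count filter it was called too (−1.03, 0.0276).

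In vehicle-treated Alport mice the sex difference of *Cyp4a14* and *Cyp4a12a* was still called, with 2 of 6 genes past the threshold where 3.84% of all genes were (2.03% higher and 1.81% lower in males). *Cyp4a14* was 81.5, 16.5, 69.2 and 44.4 CPM in Alport males against 345, 485, 199 and 315 CPM in Alport females (log2FC −2.66 ± 0.44, adjusted p = 0.00983). *Cyp4a12a* was 14.8, 51.3, 4.24 and 12.4 CPM against 2.44, 2.87, 1.92 and 1.31 CPM (3.27 ± 0.66, 0.0253), a call that was lost without Alport male replicate 1 (0.0503) or without Alport female replicate 1 (0.0701), 3 (0.0729) or 4 (0.0817). Without Alport male replicate 2 the log2FC was 2.30, still called. *Cyp4a12b* did not overlap between the sexes either but had an adjusted p of 0.0886 (log2FC 0.73), and 12.2% of all genes did not overlap. Tested as an interaction of sex and genotype, no *Cyp4a* gene passed in edgeR (0.532% of all genes did), with 1 at an unadjusted p under 0.05 where 12% of all genes were, *Cyp4a12b* (1.25 ± 0.40, adjusted p = 0.197), and 0 passed in DESeq2.

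Of 12 listed genes known for a sex difference in the mouse kidney, 9 were higher and 3 lower in vehicle-treated control males. Of all genes 15.8% were higher and 15.9% lower. The genes were listed for that difference, with earlier results of these data known, so the count is a description. *Slco1a1*, an organic anion transporter, was higher by a log2FC of 9.14, *Cyp2j13*, another P450, by 7.55, *Acsm3*, a medium-chain acyl-CoA synthetase, by 5.90 and *Slc22a30* by 4.75. From the list of sex hormone regulators 6 of 10 genes were higher and 1 lower, beside the same shares of all genes. The prolactin receptor *Prlr* was the lower one (−2.42), the direction of *Cyp4a14*.

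Alport mice were then set against controls on vehicle, the comparison that shows the disease. In females 4 genes were lower and *Cyp4a12b* was higher, and in males 3 genes were lower. These counts stand beside a disease effect that reached 45.8% of the 15709 genes tested in females (21.8% lower and 24.0% higher) and 51.0% of 15286 in males (24.2% lower). The median log2FC of the 6 genes was −0.96 in females and −0.70 in males, where the median of all genes was −0.00 in both.

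In females *Cyp4a14* was 542, 858, 688 and 633 CPM in controls and 345, 485, 199 and 315 CPM in Alport mice, so that all Alport mice were below all controls (log2FC −0.98 ± 0.24, adjusted p = 0.00630). *Cyp4a10* was 401, 766, 599 and 508 CPM against 287, 392, 195 and 277 CPM, again without overlap (−0.94 ± 0.23, 0.00615). *Cyp4a31* fell from 344 to 402 CPM in controls to 140 to 244 CPM in Alport mice (−1.03 ± 0.15, 0.000382), the gene of the family with the smallest p.

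*Cyp4a32* fell by a log2FC of −1.15 ± 0.28 (adjusted p = 0.00738), at 0.941 to 1.65 CPM and 0.479 to 0.739 CPM. *Cyp4a12b* rose in Alport females, from 2.06, 4.02, 2.0 and 1.19 CPM to 6.36, 4.94, 5.73 and 4.71 CPM (log2FC 1.26 ± 0.30, 0.00566), while *Cyp4a12a* was not changed beyond the spread (−0.25 ± 0.34, 0.575). Values did not overlap for 5 of 6 genes, against 44.4% of all genes, and these 5 calls held with any of the 8 mice left out. With all 32 mice in 1 fit *Cyp4a14* was not called (−1.02, adjusted p = 0.126). With the counts of the *Cyp4a12* pair summed, the pair differed by 0.65 (adjusted p = 0.0781) and was not called. The call of *Cyp4a12b* holds for the counts as split, and a sum cannot tell a wrong split from a change of 1 copy.

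In males *Cyp4a31* fell from 247, 218, 460 and 230 CPM to 182, 122, 152 and 163 CPM (log2FC −0.81 ± 0.22, adjusted p = 0.00817) and *Cyp4a32* from 1.57 to 2.74 CPM to 0.648 to 1.34 CPM (−1.11 ± 0.30, 0.00790), both without overlap, which held for 50.6% of all genes. Summed with *Cyp4a10*, which shares much of their sequence, the 3 genes were not called together (−0.70, adjusted p = 0.0761). Both calls hold for the counts as split, and the sum cannot tell a wrong split from the spread of *Cyp4a10*. *Cyp4a12a*, the male 20-HETE synthase, fell from 49.7 to 95.7 CPM to 4.24 to 51.3 CPM (−1.67 ± 0.53, 0.0210). Alport replicate 2 (51.3 CPM) reached into the control range and the other 3 Alport males did not. This last call was lost without control replicate 2 (0.0543) or Alport replicate 1 (0.0577) or 4 (0.0533), and without Alport replicate 2 the log2FC was −2.66.

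*Cyp4a10* (−0.59, adjusted p = 0.243), *Cyp4a12b* (−0.03, 0.936) and *Cyp4a14* (0.29, 0.715) were not called in males. Vehicle-treated males expressed little *Cyp4a14* in either genotype, 16.6 to 119 CPM in controls and 16.5 to 81.5 CPM in Alport mice. Without control replicate 3, *Cyp4a14* was higher in Alport males by 1.34 (0.0230) and *Cyp4a10* differed by 0.05.

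Cells of other types moved with the genotype beside these values. Of the 16 proximal tubule markers 15 fell in males (median log2FC −1.02) and 14 in females (−0.87). Immune markers rose, 8 of 8 in males (median 2.66) and 7 of 8 in females (2.27), as did 5 of 5 fibroblast markers in each sex (2.91 and 1.97). In bulk RNA, fewer proximal tubule cells and less *Cyp4a* RNA per cell cannot be told apart, and the part of the cell mix in the falls was not tested.

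Most listed genes that work around ω-hydroxylation were lower in Alport mice, beside 3 of the 6 *Cyp4a* genes in males and 4 in females. The part of the cell mix in these falls was not tested either. In Alport females 16 of 20 genes were lower and 2 higher (median −0.55), where 21.8% and 24.0% of all genes were. In Alport males 18 of the 20 were lower (median −0.66), where 24.2% of all genes were. The electron donors of the P450 were among them, *Por* (log2FC −0.79 in males and −0.81 in females) and *Cyb5a* (−0.83 and −0.63). So were *Aldh9a1* (−1.02 and −0.88) and *Aldh3a2* (−0.69 and −0.33), aldehyde dehydrogenases of the route, and the peroxisomal β-oxidation enzyme *Ehhadh* (−1.06 and −0.84). *Cyb5r3* (0.38) and *Adh1* (0.46) were the pair that rose in females.

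NR was tested first against vehicle in controls, which shows its effect without the disease. *Cyp4a14* and *Cyp4a10* rose in both sexes, and in total 3 genes rose in males and 5 in females, with none lower in edgeR. Of all genes 4.53% were called in males (3.07% higher) and 6.18% in females (3.91% higher). The median log2FC of the 6 genes was 1.34 in males and 1.43 in females, against −0.00 and −0.01 for all genes.

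In control males *Cyp4a14* went from 25.1, 16.6, 119 and 24.4 CPM on vehicle to 3398, 1903, 3171 and 2353 CPM on NR. Every treated male was far above every untreated one, and the log2FC was 5.89 ± 0.66 (adjusted p = 0.00260), 59.1-fold, and 6.95 without vehicle replicate 3. *Cyp4a10* went from 188, 148, 591 and 205 CPM to 1876, 1232, 1599.5 and 1404 CPM (2.45 ± 0.40, 0.0141), and *Cyp4a12b* from 6.38 to 11.8 CPM to 23.0 to 41.8 CPM (1.81 ± 0.24, 0.00568). None of these overlapped. Without vehicle replicate 3 the log2FC of *Cyp4a10* was 3.09.

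*Cyp4a31* (0.87, adjusted p = 0.0602), *Cyp4a32* (−1.004, 0.107) and *Cyp4a12a* (−0.76, 0.224) were not called in control males, although *Cyp4a32* did not overlap (1.57 to 2.74 CPM on vehicle and 0.461 to 1.37 CPM on NR), as 13.4% of all genes did not. *Cyp4a12a* was 31.2, 27.3 and 26.3 CPM in 3 NR-treated control males and 79.5 CPM in replicate 2. Without that mouse it was lower on NR by −1.30 (0.0105), but replicates 1 and 3 among those left had *Col4a3* in the Alport range. The treated males outside that range, replicates 2 and 4, were at 79.5 and 26.3 CPM, against 49.7 to 95.7 CPM on vehicle. Without control replicate 3 on vehicle *Cyp4a31* was higher by 1.18 (0.00517). With the *Cyp4a12* pair summed the change was −0.07 (0.883). The call of *Cyp4a12b* holds for the counts as split, and the sum cannot tell a wrong split from a change of 1 copy. *Cyp4a31* was also called higher with no low-count filter (0.86, 0.0401) and with all 32 mice in 1 fit (0.86, 0.0233). DESeq2 called *Cyp4a31* higher (0.86, 0.00351) and *Cyp4a32* lower (−1.01, 0.0406).

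*Cyp4a10* lost its call without vehicle replicate 1 (adjusted p = 0.0586) or 4 (0.0534), and without the 2 treated males whose *Col4a3* lay in the Alport range (2.22, 0.0794). Without those 2 males *Cyp4a14* (5.52, 0.0124) and *Cyp4a12b* (1.43, 0.0339) were still called. The 2 males had the lowest proximal tubule marker sums of the 8 control males, 19403 and 21581 CPM, where the other 6 had 28861 to 32018 CPM, and their *Cyp4a14* was the highest, 3398 and 3171 CPM. Endothelial markers were higher with NR in control males (5 of 5, median 0.64) and so were 2 of 5 fibroblast markers (median 0.77), and their part in the *Cyp4a* values was not tested.

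In control females *Cyp4a14* rose from 542, 858, 688 and 633 CPM to 2156, 1296, 2955 and 2614 CPM (log2FC 1.72 ± 0.22, adjusted p = 0.00213), 3.30-fold, and *Cyp4a10* from 401, 766, 599 and 508 CPM to 1442, 902, 1723 and 1653 CPM (1.32 ± 0.21, 0.00548). *Cyp4a12b* had the largest rise, from 2.06, 4.02, 2.0 and 1.19 CPM to 15.4, 7.48, 18.8 and 16.8 CPM (2.62 ± 0.34, 0.00221), and *Cyp4a12a* rose by 1.54 ± 0.28 (0.0105). In all 4 genes the treated mice were above the untreated ones, as in 14.7% of all genes (in either direction), and replicate 2 was the lowest treated mouse.

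*Cyp4a31* rose less in control females (0.48 ± 0.11, adjusted p = 0.0316), with overlap, and its call was lost when any of 7 of the 8 mice was left out (0.0553 to 0.0886). *Cyp4a32* was not called (0.21, 0.729). With all 32 mice in 1 fit *Cyp4a12b* was the 1 gene still called in control females. There *Cyp4a14* (1.73, adjusted p = 0.222), *Cyp4a10* (1.33, 0.145), *Cyp4a12a* (1.55, 0.456) and *Cyp4a31* (0.49, 0.442) lost their calls at almost the same log2FC.

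The effect of NR in controls differed between the sexes for a pair of genes when tested as an interaction, where 0.683% of all genes differed (0.364% higher and 0.319% lower in females). *Cyp4a14* rose by less in females (female minus male −4.15 ± 0.66, adjusted p = 0.0127), which had the higher level on vehicle. On NR the sexes overlapped, 1903 to 3398 CPM in males and 1296 to 2955 CPM in females. *Cyp4a12a* differed in the other direction (2.31 ± 0.51, 0.0473), since it rose in females and had a value below 0 in males. *Cyp4a14* passed with any 1 mouse left out (0.0390 at most, and −5.22 without vehicle-treated male replicate 3), *Cyp4a12a* lost its call without any of 12 of the 16 mice (0.0640 to 0.116), and *Cyp4a10* (−1.11, 0.265) was called without vehicle-treated male replicate 3 (−1.77, 0.0223). Without the 2 males of the *Col4a3* overlap neither passed, with −3.81 (0.0599) for *Cyp4a14* and 1.95 (0.195) for *Cyp4a12a*. With all 32 mice in 1 fit *Cyp4a12a* was not called (2.32, 0.466).

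**Figure D2:**
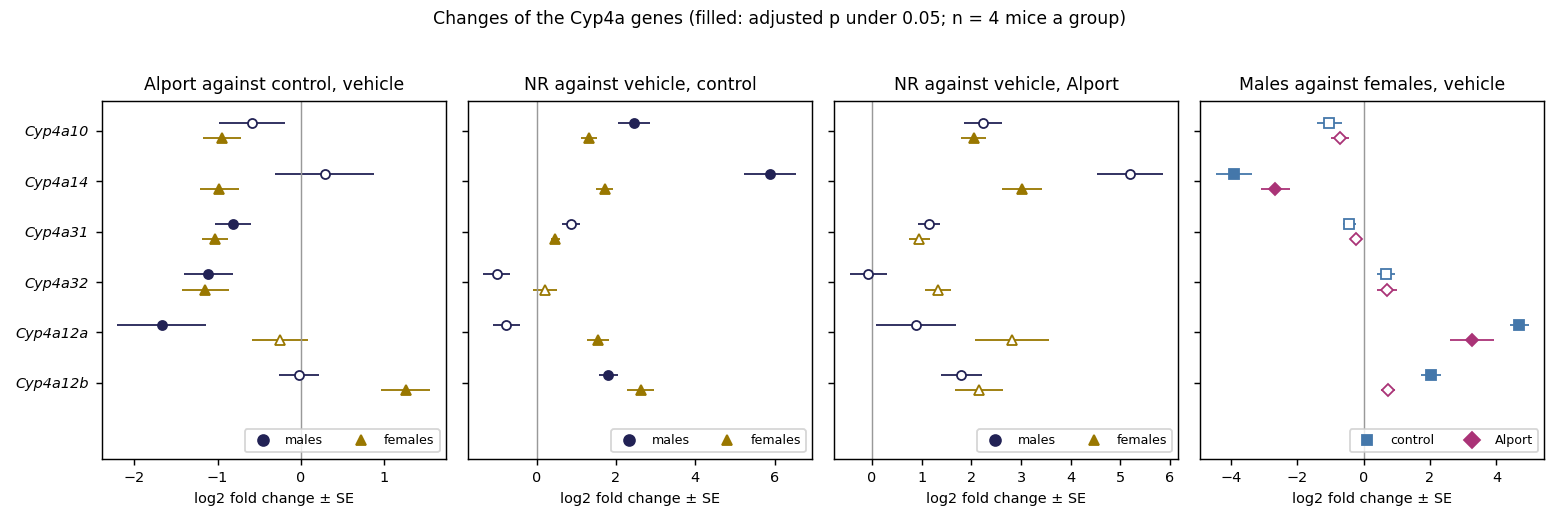
Log2 fold changes ± SE of the 6 genes (x axis) in 4 kinds of comparison, with circles for males, triangles for females, squares for control and diamonds for Alport mice, and filled symbols where the adjusted p was under 0.05. With NR *Cyp4a14* lies at 5.89 in control and 5.19 in Alport males against 1.72 and 3.02 in females, and no gene of NR-treated Alport males is filled although 5 of 6 lie above 0.

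NR was then tested in Alport mice, the comparison the study was made for. In females all 6 genes were higher on NR with no overlap between the groups, which 9.18% of all genes showed in either direction. *Cyp4a10* and *Cyp4a14* passed the adjusted threshold, as did 0.477% of all genes (0.388% higher). *Cyp4a14* went from 345, 485, 199 and 315 CPM to 1656, 1603, 2679 and 4888 CPM (log2FC 3.02 ± 0.41, adjusted p = 0.0141), 8.10-fold. *Cyp4a10* went from 287, 392, 195 and 277 CPM to 935, 939, 1193 and 1659 CPM (2.05 ± 0.25, 0.0102), 4.13-fold.

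The other 4 genes had log2FCs of 2.82 ± 0.74 for *Cyp4a12a* (adjusted p = 0.130), 2.16 ± 0.48 for *Cyp4a12b* (0.1001), 1.34 ± 0.26 for *Cyp4a32* (0.0674) and 0.95 ± 0.22 for *Cyp4a31* (0.104). *Cyp4a12a* was 3.91, 4.05, 10.8 and 41.0 CPM on NR, and replicate 4 was the highest mouse for all 6 genes. Neither *Cyp4a10* nor *Cyp4a14* was called without vehicle replicate 1 (0.0531 and 0.0698) or 4 (0.0555 and 0.0724), and *Cyp4a14* was not called without vehicle replicate 3 (0.0583). *Cyp4a12b* was called without NR replicate 2 (2.43, 0.0482) or 4 (1.42, 0.0491). With DESeq2 all 6 genes passed.

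In males *Cyp4a14* went from 81.5, 16.5, 69.2 and 44.4 CPM to 712, 2627, 3122 and 1322 CPM, *Cyp4a10* from 246, 96.1, 184 and 181 CPM to 442, 1305, 779 and 820 CPM, and *Cyp4a31* from 122 to 182 CPM to 235 to 474 CPM. These 3 genes did not overlap, where 3.42% of all genes did not. NR replicate 1 was the lowest treated mouse for all 3.

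None of the 6 genes, and 0 of 15500 genes, passed the adjusted threshold in edgeR. At an unadjusted p under 0.05 there were 4 of 6 genes and 785 of all genes (5.06%). The log2FCs were 5.19 ± 0.66 for *Cyp4a14* (adjusted p = 0.252), 36.6-fold, 2.23 ± 0.38 for *Cyp4a10* (0.306), 1.80 ± 0.41 for *Cyp4a12b* (0.613), 1.15 ± 0.22 for *Cyp4a31* (0.394), 0.89 for *Cyp4a12a* (0.941) and −0.08 for *Cyp4a32* (0.989). DESeq2 called 62 genes, 4 of them in the family, and without NR replicate 1 edgeR called the same number of the 6 genes, *Cyp4a14* (5.47, 0.0204), *Cyp4a10* (2.44, 0.0261), *Cyp4a12b* (2.06, 0.0266) and *Cyp4a31* (1.30, 0.0262).

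No gene in the table showed an interaction of NR and genotype in either sex at the adjusted threshold (0 of 15800 in males and 0 of 16064 in females; 1398 and 1521, or 8.85% and 9.47%, at an unadjusted p under 0.05, with 0 and 2 of the 6 genes among them). DESeq2 called 18 and 30 genes, none of the 6. For *Cyp4a14* the difference, Alport minus control, was −0.71 ± 0.85 in males (adjusted p = 0.843) and 1.28 ± 0.48 in females (0.452), and −0.34 (0.99998) in males without the 2 of the *Col4a3* overlap. The interaction of NR and sex in Alport mice was −2.20 ± 0.74 for *Cyp4a14*, in the direction seen in controls but not called (adjusted p = 0.99994, with 0 genes called, 2 of the 6 and 2.24% of all genes at an unadjusted p under 0.05, and 1 gene, outside the family, called by DESeq2).

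NR-treated Alport mice were also set against vehicle-treated controls, which shows how far the treated levels lay from the untreated healthy ones. *Cyp4a14* was 44.0-fold higher in males (log2FC 5.46 ± 0.80, adjusted p = 0.00391) and 4.00-fold higher in females (2.0 ± 0.34, 0.00298). *Cyp4a10* and *Cyp4a12b* were higher in both sexes, by 1.63 (0.0396) and 1.75 (0.0155) in males and 1.06 (0.00917) and 3.37 (0.00304) in females, and *Cyp4a12a* was higher in females (2.52, 0.0330) with overlap. *Cyp4a32* was lower in males (−1.20, 0.0333). In males no call was made on the sums of close copies, and the calls outside *Cyp4a14* hold for the counts as split. A sum cannot tell a wrong split of reads from a change of 1 copy. The *Cyp4a12* pair summed was at −0.12 (0.863) and *Cyp4a10*, *Cyp4a31* and *Cyp4a32* summed at 1.11 (0.0731). In total 4 of 6 genes were called in each sex, beside 21.2% of all genes in males (14.4% higher and 6.81% lower) and 23.5% in females (11.9% higher). In each sex 3 of the 6 did not overlap, where 32.6% and 26.3% of all genes did not.

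*Cyp4a31* was the abundant member that was not called, at −0.12 ± 0.16 in females (adjusted p = 0.653) and 0.32 ± 0.29 in males (0.449). Its NR-treated Alport values were 303, 326, 278 and 493 CPM in females and 235, 474, 324 and 349 CPM in males, against 344 to 402 and 218 to 460 CPM in vehicle-treated controls. In females 3 treated mice were below the control range and replicate 4 above it, and without replicate 4 the gene was lower than in controls (−0.30, 0.0273). The call of *Cyp4a10* in males was lost when any of control replicates 1, 2 and 4 (0.105 to 0.109) or NR replicates 2, 3 and 4 (0.0541 to 0.0727) was left out, and that of *Cyp4a32* when any of 6 mice was (0.0518 to 0.101). That of *Cyp4a12a* in females was lost without control replicate 1, 3 or 4 (0.0812 to 0.0924). Without control male replicate 3 the male log2FCs were 6.52 for *Cyp4a14* and 2.27 for *Cyp4a10*. Without NR-treated Alport female replicate 4 the female ones were 1.28 for *Cyp4a12a* and 2.67 for *Cyp4a12b*, and all 4 were still called.

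Because the 6 genes were measured in the same library, their ratios within a mouse do not depend on depth or scaling. Values per kilobase were used, and 24 exact two-sided permutation tests of log2 ratios were run, with p adjusted over the 24. With 4 mice against 4 the smallest possible p is 0.0286, which gave an adjusted p of 0.0429.

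The ratio of *Cyp4a14* to *Cyp4a10* was 0.120 ± 0.034 (SD, n = 4) in vehicle-treated control males and 1.03 ± 0.088 in vehicle-treated control females. On NR it was 1.48 ± 0.16 in control males, with 1.30 and 1.42 in the 2 males outside the *Col4a3* overlap, and 1.32 ± 0.10 in control females, and from 0.237 ± 0.077 to 1.95 ± 0.97 in Alport males and 0.971 ± 0.082 to 1.83 ± 0.48 in Alport females. All 4 NR comparisons and both comparisons of the sexes on vehicle reached the adjusted p of 0.0429 in the exact permutation test without overlap. Genotype on vehicle did not (adjusted p = 0.0762 in males and 0.405 in females, exact permutation test).

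The ratio of *Cyp4a31* to *Cyp4a10* moved the other way with NR in every group, from 0.987 ± 0.25 to 0.299 ± 0.090 in control males, 0.784 ± 0.20 to 0.365 ± 0.059 in Alport males, 0.589 ± 0.13 to 0.321 ± 0.040 in control females and 0.536 ± 0.044 to 0.252 ± 0.041 in Alport females. Each of these 4 falls also had an adjusted p of 0.0429 in the exact permutation test. Both genes share sequence, and the part of shared reads in these ratios was not tested.

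The ratio of *Cyp4a12a* to *Cyp4a12b* was 7.29 ± 2.09 in vehicle-treated control males, above every other group, where the means ran from 0.390 to 2.01. It was 2.01 ± 1.35 in Alport males on vehicle, 1.29 ± 0.92 in control males on NR and 1.18 ± 0.76 in Alport males on NR, and in females it was 1.16 ± 0.28 in controls on vehicle, 0.555 ± 0.12 in controls on NR and 0.390 ± 0.13 in Alport mice on vehicle. The change with genotype on vehicle and that with NR in controls had an adjusted p of 0.0429 in both sexes (exact permutation test), and that with NR in Alport mice did not pass (0.477 in males and 0.405 in females). Since 51.12% and 50.55% of their 50-base windows are their own, the size of these ratios is uncertain.

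**Figure D3:**
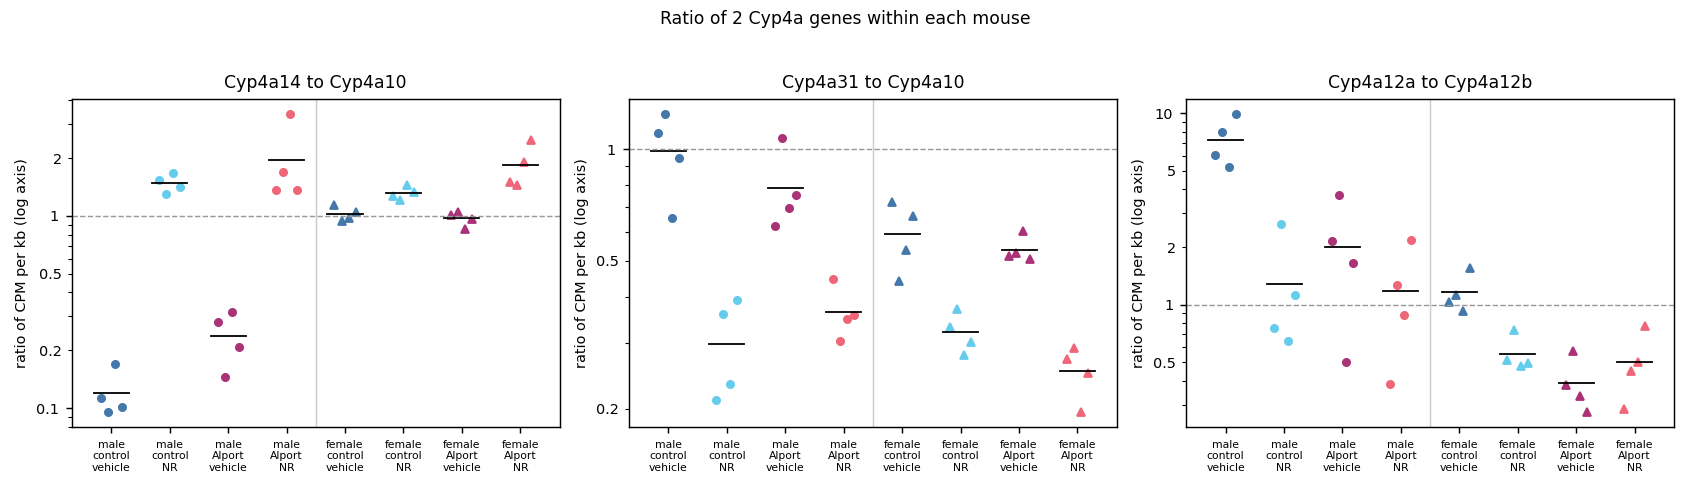
Ratio of CPM per kilobase between 2 members within each mouse (log axis; dashed line at 1), with 1 symbol per mouse and a bar at the group mean. The ratio of *Cyp4a14* to *Cyp4a10* lies at 0.0952 to 0.317 in the 8 vehicle-treated males and at 0.859 to 3.38 in all other mice, and the ratio of *Cyp4a12a* to *Cyp4a12b* is at 5.21 to 9.90 in vehicle-treated control males.

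Mice of 1 group differed from each other in a shared way. The mouse with the most *Cyp4a10* was also that with the most *Cyp4a14* in 7 of 8 groups, and the mouse with the least was shared in 7 of 8 groups. Within groups (log2 CPM as deviations from the group mean, 32 mice), Pearson's r was 0.93 between *Cyp4a10* and *Cyp4a14*, 0.85 between *Cyp4a10* and *Cyp4a31* and 0.73 between *Cyp4a12a* and *Cyp4a12b*, while it was 0.19 between *Cyp4a10* and *Cyp4a12a* and −0.05 between *Cyp4a10* and *Cyp4a32*. These are descriptions over mice that share the library of the paired genes, and reads shared between close copies enter them.

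Marker sums were read beside *Cyp4a14* in each NR-treated Alport mouse. In males 1 to 4, *Cyp4a14* was 712, 2627, 3122 and 1322 CPM, the immune marker sum 1742, 641, 575 and 718 CPM and the proximal tubule marker sum 9262, 23565, 6131 and 22424 CPM. In females 1 to 4, *Cyp4a14* was 1656, 1603, 2679 and 4888 CPM, the immune sum 1187, 795, 387 and 191 CPM and the tubule sum 13687, 14982, 14412 and 12986 CPM. Male replicate 3 and female replicate 4 had the most *Cyp4a14* of their groups, the lowest immune sum and the lowest tubule sum. The order did not hold throughout the females, where replicate 1 had more *Cyp4a14* than replicate 2 and a higher immune sum. A link of *Cyp4a14* to either sum was not tested. Vehicle-treated Alport mice had immune sums of 878 to 1570 CPM and *Cyp4a14* of 16.5 to 485 CPM.

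**Figure D4:**
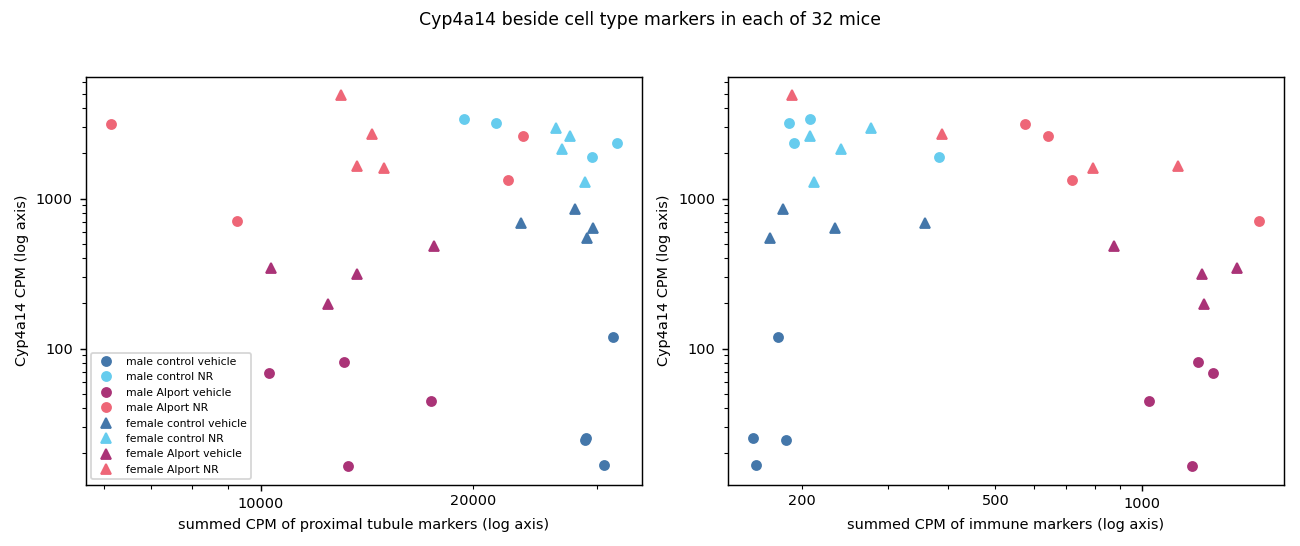
*Cyp4a14* (CPM, y axis) beside the summed CPM of 16 proximal tubule markers (left) and 8 immune markers (right) in each of 32 mice, both axes on a log scale, with circles for males and triangles for females. The NR-treated mice lie at 712 to 4888 CPM of *Cyp4a14* over tubule sums of 6131 to 32018 CPM, and the NR-treated Alport female with 4888 CPM has an immune sum of 191 CPM, inside the range of the controls (159 to 382 CPM).

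Liver contains much *Cyp4a* RNA, so hepatocyte genes were checked too. *Cyp3a11*, *Cyp2c29* and *Tat* were at most 0.516, 0.0952 and 0.191 CPM in any mouse, and *Alb* was 1.37 to 24.4 CPM. Of 7 hepatocyte genes that passed the filter 3 were higher with NR in control males and 3 in control females (medians 1.01 and 0.60), and the summed level of the list ran from 129 CPM to 242 CPM in vehicle-treated and 280 to 533 CPM in NR-treated control males. In vehicle-treated Alport males that sum was 406 to 508 CPM, at 16.5 to 81.5 CPM of *Cyp4a14*. A link of the sum to *Cyp4a* was not tested. *Serpina1a*, *Fga* and *Ttr*, with medians of 82.2, 93.2 and 81.0 CPM, were the most abundant genes of the hepatocyte list. The proximal tubule list had a median change of −0.19 to 0.06 with NR in the 4 comparisons, with at most 1 marker higher and 2 lower.

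The genes whose levels over the 32 mice were most like each member were sought among 14048 genes outside the family, by Pearson's r of log2 CPM. Among the 5 most like *Cyp4a10* were *Gsta2* (r = 0.95), *Acot1*, *Acaa1b* and *Cbr1* (0.92). Among the 5 most like *Cyp4a14* were *Cbr1* (0.94), *Abcc4*, *Gsta2* and *Tkt* (0.89), and for *Cyp4a31* the 5 were the lipid metabolism genes *Acaa1b* (0.93), *Hsdl2*, *Acaa2*, *Mgll* and *Eci1* (0.90).

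The *Cyp4a12* pair and *Cyp4a32* had other neighbours. *Cyp4a12a* was most like *Usp20* (0.90), *Ces2c*, *Mpp6*, *Slc52a3* and *Cpox* (0.87), *Cyp4a12b* like *Sqle* (0.89), *Blvrb*, *Aldh1a7*, *Reep3* and *Psap* (0.86), and *Cyp4a32*, at a low count, like *Mkln1* (0.72), *Mtrr*, *Atg2b*, *Sh3tc1* and *Abcc6* (0.70). All of these values describe patterns that treatment, sex and genotype shape together.

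Around the family, the ω-oxidation list responded to NR in part. In control females 12 of its 20 genes rose, in control males 5 rose and *Adh1* fell (log2FC −0.75, adjusted p = 0.0449), and in Alport females 2 rose, with medians of 0.35, 0.15 and 0.46. *Ehhadh*, which joins the dehydrogenase and hydratase steps of the peroxisome, and *Acaa1b*, a peroxisomal thiolase, were the genes called in all 3. *Ehhadh* rose by 1.19 in control males, 1.28 in control females and 2.34 in Alport females, and *Acaa1b* by 1.42, 0.95 and 1.66. *Acsl1*, which activates fatty acids, rose by 1.51 in control males and 0.53 in control females and was 1.51 (adjusted p = 0.799) and 1.30 (0.0957) in Alport males and females. *Por*, the reductase that feeds the P450 enzymes with electrons, was not called with NR in any group (−0.10 to 0.31). In Alport males none of the 20 passed in edgeR (median 0.24).

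**Figure D5:**
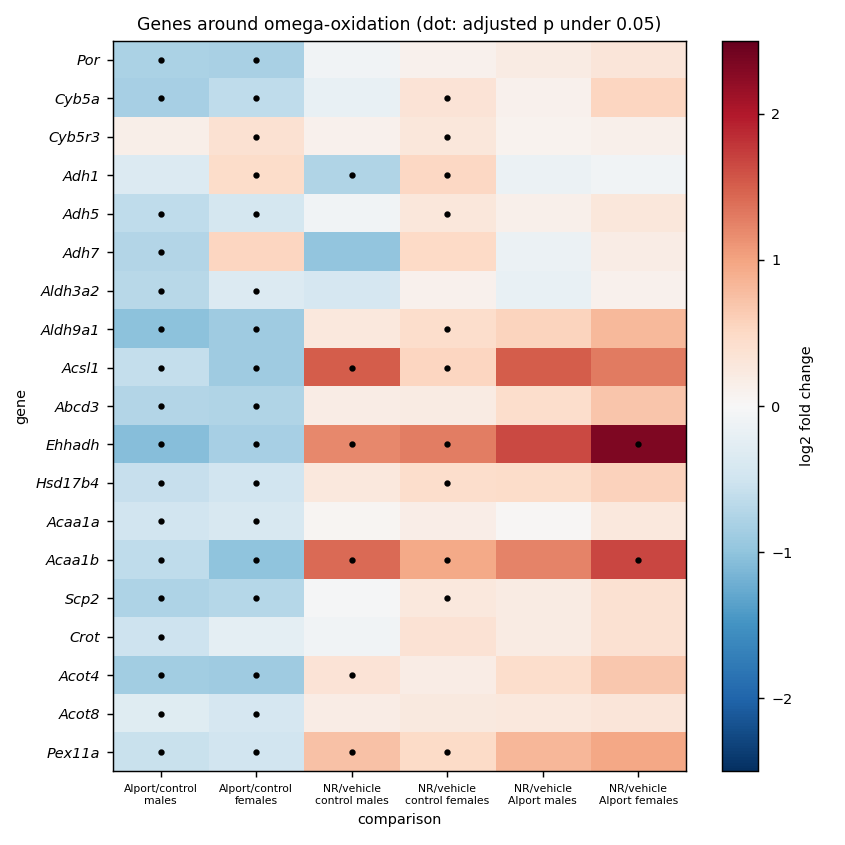
Log2 fold changes (colour, blue lower and red higher) of 19 of the 20 genes of the ω-oxidation route (rows) in 6 comparisons (columns), with a dot where the adjusted p was under 0.05. The Alport columns hold 17 called falls in males and 15 in females, and the NR columns hold 11 called rises in control females, 5 in control males, 2 in Alport females and 0 in Alport males.

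Of 31 listed PPARα targets outside the family, 16 of the 27 tested rose with NR in control males, 17 of 27 in control females, 7 of 28 in Alport females and 0 of 28 in Alport males, and none fell. Of all genes 3.07%, 3.91%, 0.388% and 0% rose in that order. The median log2FC of the listed genes was 0.72, 0.48, 0.93 and 0.89. The list was chosen with earlier results of these data known, so its counts are a description. *Fabp1*, a fatty acid binding protein, rose by 5.43, 3.40 and 3.94 in the first 3 comparisons and was 3.19 (adjusted p = 0.394) in the last. *Acot1*, an acyl-CoA thioesterase, rose by 2.47, 1.28 and 1.93 in the first 3 comparisons and was 1.77 (adjusted p = 0.394) in the last. The receptor gene *Ppara* itself fell in Alport mice on vehicle (−0.94 in males and −1.14 in females) and had values of −0.45 in control females (adjusted p = 0.0121) and −0.15 to 0.14 in the other 3 NR comparisons, of which none was called. Its coactivator gene *Ppargc1a* fell in Alport mice by −0.66 in each sex and was not called with NR (−0.17 to 0.28).

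Other *Cyp4* genes were not called higher with NR. Of 12 listed genes 8 or 9 were tested, 0 rose with NR in any of the 4 comparisons in edgeR, and *Cyp4f17* fell in control females (−0.46, adjusted p = 0.0273). Of all genes 3.07% rose in control males, 3.91% in control females, 0.388% in Alport females and 0% in Alport males. A count of 0 lies near these shares, so it does not show a contrast with the family. In Alport mice *Cyp4f18*, known from leukocytes, rose by 2.67 in males and 1.80 in females, and *Cyp4b1* fell by −1.27 and −0.83. *Cyp4b1* was also higher in males than in females (3.31 in controls on vehicle), the direction of *Cyp4a12a*.

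In the arachidonic acid list, *Ephx2*, the soluble epoxide hydrolase that degrades epoxides made by other P450 enzymes, rose with NR in control females (0.76, adjusted p = 0.00309) and Alport females (1.02, 0.0102) and was not called in control males (0.09, 0.697). The epoxygenase genes *Cyp2c44* and *Cyp2j5* were lower in Alport mice (−0.94 and −0.95 in males, −1.28 and −0.64 in females) and not called with NR. *Ptgs2*, the inducible cyclooxygenase, was higher in Alport mice of both sexes (2.27 and 1.93).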

How the data were processed

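Poly(A) RNA-Seq was analysed from kidney cortex of 32 mice, 1 library each. The authors aligned and counted reads with BioJupies and deposited raw counts per gene symbol (build mm10). The aligner version, annotation and strand setting are not given in the sources used here. A deposited log10 table equalled log10(CPM + 1) of the same counts and entered no test. Genes were filtered with filterByExpr (minimum count 10) and TMM-normalised, and each comparison was fitted on its own mice with edgeR 4.0.16 (R 4.3.3), quasi-likelihood F test, Benjamini-Hochberg adjustment over all genes, threshold 0.05. SE is the log2FC divided by the square root of F. CPM are TMM-scaled. Ratios used SciPy 1.17.1. The pipeline was tested on simulated counts. Alternatives were DESeq2 1.42.0, RLE size factors, no filter, all 32 mice in 1 fit, replicate block, summed paralogs and each mouse left out, and, chosen after seeing the data, male control NR replicates 2 and 4 only. Sequences came from GRCm38 with GENCODE transcripts. Named genes were the 6 members, list genes by role, up to 4 largest called changes in other lists and the 5 most similar genes. The members and lists were chosen with earlier results of these data known. The edgeR p-values set a difference between groups against the spread between mice, and those of the ratios come from exact permutation of mice between groups. No 2 libraries of a group were alike within counting noise. Some genes of the lists are counted but not reported by name here.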

Additional observations from a re-analysis of the deposited data

Results flagged for a closer look

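Groups of 4 mice were searched for a mouse that lay apart from the other 3, with Dixon's criterion for 48 combinations of gene and group, and 6 were found. For normally distributed values, chance alone gives such a mouse in 5% of groups. The criterion was applied to CPM without a log, which need not be so distributed, and several of the 6 came from the same mouse. Their number can therefore not be set against that 5%. Vehicle-treated control male replicate 3 was the highest of its group for *Cyp4a10* (591 CPM, next 205 CPM), *Cyp4a14* (119 CPM, next 25.1 CPM) and *Cyp4a31* (460 CPM, next 247 CPM). NR-treated control male replicate 2 was highest for *Cyp4a12a* (79.5 CPM, next 31.2 CPM), and vehicle-treated control female replicate 2 was highest for the same gene (4.54 CPM, next 2.14 CPM). NR-treated control female replicate 2 was lowest for *Cyp4a31* (399 CPM, next 571 CPM).

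The effect of NR differed between the sexes in controls by an interaction test (edgeR) for *Cyp4a14* (female minus male −4.15, adjusted p = 0.0127) and *Cyp4a12a* (2.31, adjusted p = 0.0473).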

How the results depend on the processing

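Counts of called *Cyp4a* genes are given as number of the 6. RLE size factors and no filter kept every count within 1.5 times the reported one. DESeq2 called 4 for NR in Alport males (0 in edgeR), 6 for NR in Alport females (2) and 5 for NR in control males (3), of which *Cyp4a32* was lower. All 32 mice in 1 fit gave 4, 6, 1 for NR in control females (5) and 1 for the NR and sex interaction in controls (2). With paralogs summed to 3 features, 1 was called for Alport males, 2 for Alport females, 3 for NR in control females and 1 for NR-treated Alport against control males. The labels do not say whether replicate numbers pair mice. Same-numbered mice had an r of −0.268 to 0.375 over 40 pairs (8 over 0.1), which cannot settle it. The replicate block gave 1 for NR in Alport females and 5 for males against females in controls (3), adding *Cyp4a10* (−1.22, adjusted p = 0.0141) and *Cyp4a31* (−0.50, 0.0491). With male control NR replicates 2 and 4 only, 0 were called for the NR and sex interaction in controls.

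With each mouse left out, counts ran from 0 to 4 for NR in Alport males, 0 to 3 for NR in Alport females, 2 to 3 for NR-treated Alport against control males, 3 to 5 and 1 to 2 for males against females in control and Alport mice, and 1 to 3 for the NR and sex interaction in controls. They also ran from 2 to 4 for Alport against control males and 2 to 4 for NR in control males. For NR in control females they ran from 4 to 5, and for NR-treated Alport against control females from 3 to 5.

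Signs turned for uncalled values. In all-mice fits these were *Cyp4a32* in the sex and genotype interaction (0.00707) and *Cyp4a12b* in the NR and genotype interaction in males (0.00978). With replicates 2 and 4 only, the latter was 0.348 and *Cyp4a10* 0.00444. With each mouse left out, Alport males ran from −0.81 to 0.0543 for *Cyp4a10*, −0.00091 to 1.34 for *Cyp4a14* and −0.29 to 0.0889 for *Cyp4a12b*, and Alport females from −0.44 to 0.15 for *Cyp4a12a*. *Cyp4a32* ran from −0.33 to 0.14 for NR in Alport males, −0.0452 to 0.35 for NR in control females and −0.21 to 0.15 in the sex and genotype interaction. The NR and genotype interaction in males ran from −0.44 to 0.24 for *Cyp4a12b* and −0.0464 to 0.42 for *Cyp4a31*, and the NR and sex interaction in Alport mice from −0.43 to 0.11 for *Cyp4a10* and −0.37 to 0.77 for *Cyp4a12b*. The causes were not tested. Depth sets a limit for *Cyp4a32*, with 8 to 64 counts per library.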
